A study of Mus musculus with 9 samples.

Results

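The genes described here are 18 established transcriptional targets of p53 and 16 regulators of apoptosis, 34 symbols in all, followed through 9 RNA-seq libraries of mouse embryos. They were found by exact match of the gene symbol in the deposited table. Of its 16070 genes, 31 were members: all 18 p53 targets and 13 apoptosis regulators. The expression of Bcl2, Bak1 and Casp8 was not analysed here. Of the 31, 29 reached 1 FPKM (read fragments divided by the length of the transcript and the size of the library) in at least 3 libraries and entered the tests, 17 p53 targets and 12 apoptosis regulators, among 11850 tested genes. Bbc3 and Bik stayed below that filter and are given by their values. The p53 targets and the apoptosis regulators are described apart.

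The transcription factor p53 is kept low by the ubiquitin ligase MDM2 and is stabilised by DNA damage and other stresses, after which it binds paired half-sites near its targets and raises their transcription. Its targets slow the cell cycle, feed back on p53 itself, or favour apoptosis through mitochondrial pore formation and death receptors. The apoptosis regulators act around that mitochondrial step: BCL2 proteins set whether the outer membrane opens, released cytochrome c drives APAF1 to activate caspase-9, and inhibitor of apoptosis proteins (IAPs) restrain the caspases. In the blastocyst, cell death is a normal event, mostly of the inner cell mass.

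All embryos were of the strain C57BL/6, were cultured in vitro and were collected 4.5 days after microinjection, WT embryos included. There were 3 groups of 3 libraries: wild type (WT), embryos labelled with a substitution of arginine 17 of histone H3 by histidine (H3R17H), and embryos labelled as lacking Carm1 (Carm1-/-), the enzyme that methylates this arginine. The labels name both whole embryos and single cells as the source and do not say that libraries came from separate embryos. They also do not give the share of edited cells in an embryo. Hence p-values measure only the spread between these libraries, which may be technical in part. Y-linked transcripts, given below, differed within each edited group, so the libraries of such a group did not all come from 1 embryo. The targeted gene Carm1 (chr9:21546894-21592623, plus strand, GRCm38) went against the labels. It had 8.86, 7.08 and 6.65 FPKM in WT replicates 1 to 3, 1.88, 0.02 and 1.22 FPKM under the H3R17H label, and 6.44, 12.7 and 9.52 FPKM under the Carm1-/- label. The sample descriptions also differ from the titles, with the name Carm for libraries titled H3R17H and the name Hist for those titled Carm1-/-. Groups are therefore named by the label in their titles, and "under the H3R17H label" or "under the Carm1-/- label" below means the libraries labelled so, whichever edit they carry.

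Depth is unknown, since the values carry no read counts. Summed FPKM ranged from 521143 to 567858 and genes of at least 1 FPKM from 10566 to 11005 over the 9 libraries. Trophectoderm and epiblast markers were present in each library. The summed level of 8 trophectoderm markers was 5540 to 8342 FPKM in WT, 1624, 1637 and 4574 FPKM under the H3R17H label, and 8800, 2015 and 2568 FPKM under the Carm1-/- label. The keratin genes Krt8 and Krt18 made up most of each sum. Of the 7 tested markers, Tfap2c alone had a higher mean than WT in each edited group. Epiblast markers summed to 189 to 248, 248 to 281 and 253 to 334 FPKM in the same order. By mean log2(FPKM + 1), 4 of the 8 were higher and 4 lower than WT under each label. Their median differences were 0.01 under the H3R17H label and -0.05 under the Carm1-/- label. Of 8 cumulus cell markers and 8 feeder fibroblast markers, 1 of each was listed, and their levels reached 9.70 and 1.59 FPKM. In such bulk measurements fewer cells of a type and less RNA per cell cannot be told apart. The 4 Y-linked genes summed to 30.7 to 35.8 FPKM in WT, to 36.6 and 28.1 FPKM in replicate 1 of each edited group, and to 0.01 FPKM or less in replicates 2 and 3 of both. By these transcripts, sex differed within both edited groups and not within WT.

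Promoter sequences are shown because they hold, in some members, letters that match the element p53 binds. RefSeq windows from 250 bases before to 50 bases after the gene start (GRCm38.p6) were found for 13 of the 18 p53 targets and searched for the p53 half-site consensus of 10 bases, which is its own reverse complement. A half-site lay in the window of 5 of them (38.5%), Aen, Bax, Ccng1, Cdkn1a and Mdm2, against 2582 of 27025 genes in the RefSeq table (9.55%). A full site, here a pair of half-sites at most 13 bases apart, lay in 1 of the 13 (7.69%), Cdkn1a, against 20 of all genes (0.074%). Of 15 listed apoptosis regulators with a window, Bcl2, Bak1 and Casp8 included, Birc2 alone had a half-site (6.67%) and none had a full site. A match describes letters and is not a measured binding site, and p53 sites of many targets lie outside such a window. Trp53inp1, Pmaip1, Zmat3, Perp, Tnfrsf10b and Bik had no window. The 4 p53 targets with half-sites before the gene start are shown 5′ to 3′ on the gene's strand, with the half-sites in capitals. They lie at chr17:29090876-29090967 for Cdkn1a (plus strand), chr7:45467065-45467124 for Bax (minus), chr11:40755437-40755496 for Ccng1 (minus) and chr10:117710910-117710969 for Mdm2 (minus).
Cdkn1a: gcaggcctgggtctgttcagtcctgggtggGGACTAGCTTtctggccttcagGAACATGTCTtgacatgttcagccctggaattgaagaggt
Bax: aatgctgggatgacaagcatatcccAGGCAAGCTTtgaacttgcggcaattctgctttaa
Ccng1: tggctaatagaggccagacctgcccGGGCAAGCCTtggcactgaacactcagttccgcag
Mdm2: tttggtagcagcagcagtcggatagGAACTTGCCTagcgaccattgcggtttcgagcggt
The Cdkn1a pair starts at position -73, with 12 bases between its half-sites. The single half-sites start at position -201 from the gene start in Bax, -185 in Ccng1 and -186 in Mdm2. Of the 4 genes, Cdkn1a had the largest difference from WT in both edited groups (1.05 and 1.30 on the log2 scale). Btg2, with a window but no half-site in it, had larger ones (1.36 and 1.88). A link between sites and differences was not tested.

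The p53 targets had mostly higher values in the edited libraries than in WT, and none of them passed the test. They were chosen with earlier results of these data known, so their counts describe the list and are no independent support. Of 23 other tested p53 targets, 13 and 12 were higher under the H3R17H and the Carm1-/- label. Under the H3R17H label, 17 of 17 tested targets had a higher mean log2(FPKM + 1) than in WT, where 47.7% of all tested genes did. Gdf15 reached the filter through edited libraries only. A higher value was therefore favoured in advance for Gdf15, in this and the later counts against WT. Their median difference was 0.64 on the log2 scale (range 0.17 to 1.36), beside -0.03 for all tested genes. Under the Carm1-/- label, 16 of 17 were higher, against 46.3% of all genes, with a median of 0.96 (range -0.32 to 1.88) beside -0.04; Perp was the exception. All 3 edited libraries lay above all 3 WT libraries for 5 targets under the H3R17H label (13.3% of all genes) and for 9 under the Carm1-/- label (6.91%). None lay wholly below WT, where 15.6% and 9.71% of all genes did. Both comparisons use the same 3 WT libraries and are not independent of each other.

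In limma over all genes, 0 of the 17 had an adjusted p under 0.05 in either comparison, and 0% of all genes did. At an unadjusted p under 0.05, 5 targets were higher under the H3R17H label (6.41% of all genes) and 7 under the Carm1-/- label (5.25%), and none was lower (7.75% and 6.19%). The lowest adjusted p among the targets was 0.257 and 0.266. With 3 against 3 libraries an exact permutation test cannot go below p = 0.1. Single libraries carried much of the size. Without H3R17H-label replicate 2, 13 of 17 targets were higher than WT in that group with a median of 0.24. Without replicate 2 labelled Carm1-/-, the median in that group was 0.5.

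**Figure D1:**
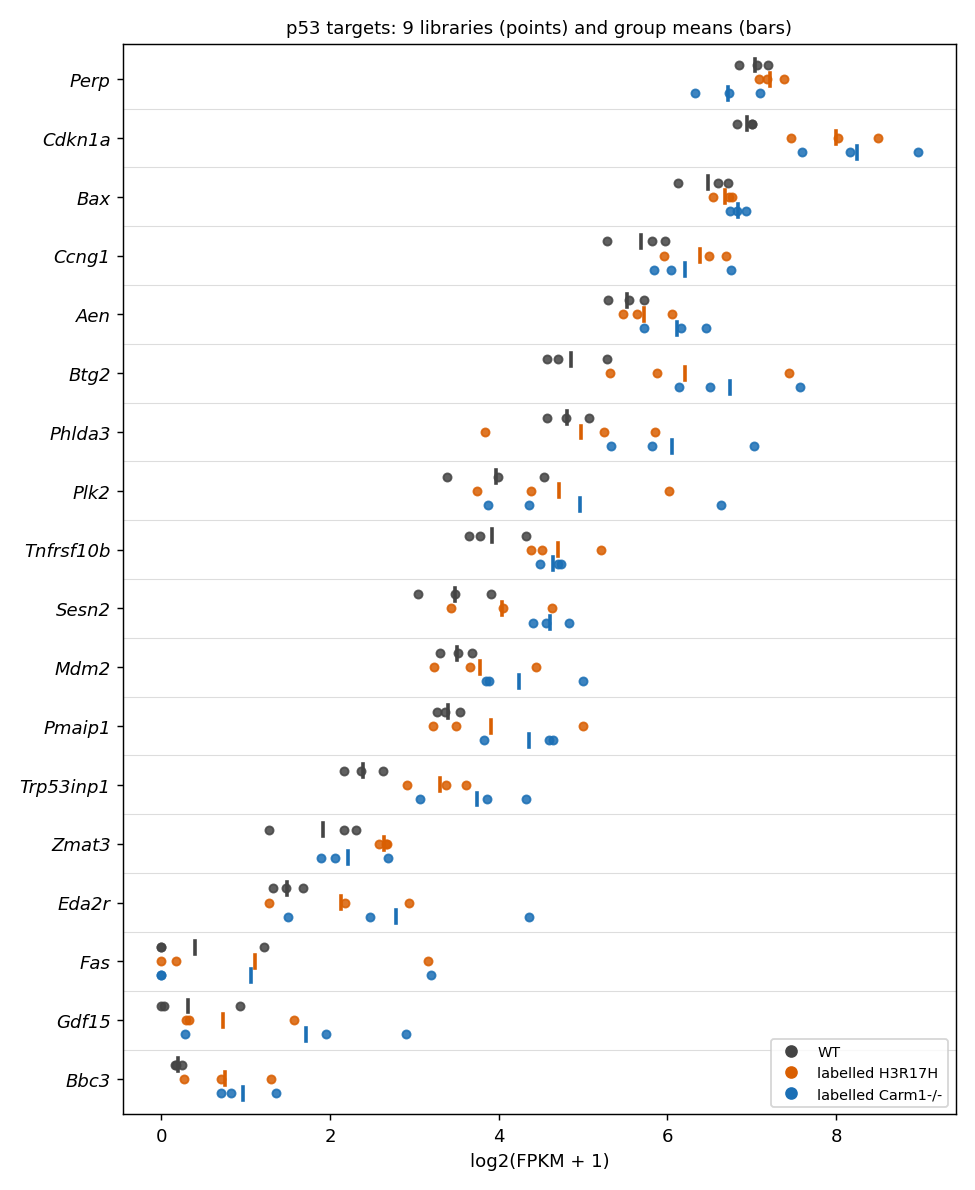
Level of each p53 target in the 9 libraries, as log2(FPKM + 1) on the horizontal axis, with 1 point per library, a bar at each group mean and colours for WT and the 2 edited groups. Cdkn1a, Btg2, Trp53inp1 and Tnfrsf10b have all 6 edited libraries to the right of all 3 WT libraries, and Bbc3 does so at levels of 1.56 FPKM or less.

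Of the 4 targets that act on the cell cycle, Cdkn1a and Btg2 lay wholly above WT in both groups, and Ccng1 and Plk2 overlapped it. Cdkn1a (chr17:29090976-29100727, plus strand), which encodes the cyclin-dependent kinase inhibitor p21, had 128, 127 and 113 FPKM in WT replicates 1 to 3. It had 259, 360.4 and 175 FPKM under the H3R17H label and 193, 499 and 287 FPKM under the Carm1-/- label. Every edited library stood above every WT library, and the WT libraries lay close together (122 ± 8.5 FPKM, SD, n = 3) while the edited ones spread widely (265 ± 92.7 and 326 ± 157 FPKM, SD, n = 3 each). The difference from WT was 1.05 on the log2 scale (SE 0.35, limma adjusted p = 0.257) in the first edited group and 1.30 (SE 0.35, adjusted p = 0.266) in the second. Btg2 (chr1:134075170-134079120, minus strand), an anti-proliferative cofactor of mRNA deadenylation, had 25, 38.1 and 22.9 FPKM in WT. Its edited values were 39, 173 and 57.6 FPKM under the H3R17H label and 89.6, 189 and 69.4 FPKM under the Carm1-/- label. The groups did not overlap, although H3R17H-label replicate 1 lay just above the highest WT library. Btg2 differed from WT by 1.36 (SE 0.52, adjusted p = 0.305) and 1.88 (SE 0.52, adjusted p = 0.266), the largest among the targets in both comparisons on this scale. By the ratio of mean FPKM, Btg2 was 3.14 and 4.05 times WT, and among the tested targets the low genes Fas (6.13 and 6.22 times) and, under the Carm1-/- label, Eda2r (4.72 times) and Gdf15 (10.3 times) had larger ratios. Gdf15 entered the tests only through its edited libraries.

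Ccng1, which encodes cyclin G1, had 55.5, 61.6 and 38 FPKM in WT, 88.7, 103 and 61.2 FPKM under the H3R17H label and 56.1, 107 and 64.7 FPKM under the Carm1-/- label. Both edited groups overlapped WT at their lowest library. The differences were 0.69 (SE 0.31, adjusted p = 0.353) and 0.52 on the log2 scale. Plk2, a kinase that p53 induces and that acts on centriole duplication, had 14.9, 22.2 and 9.47 FPKM in WT. It had 12.4, 63.8 and 19.8 FPKM under the H3R17H label and 19.6, 98.5 and 13.7 FPKM under the Carm1-/- label. Replicate 2 of each edited group stood far above the rest, and the other 4 edited libraries lay within the WT range.

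Of the targets that feed back on p53, Trp53inp1, whose product promotes phosphorylation of p53, had 5.19, 3.51 and 4.16 FPKM in WT. The libraries labelled H3R17H had 6.56, 11.2 and 9.4 FPKM and those labelled Carm1-/- 7.39, 19 and 13.5 FPKM. No edited library overlapped WT, and the group means were 9.06 ± 2.35 and 13.3 ± 5.8 against 4.29 ± 0.849 FPKM (SD, n = 3 each). The differences were 0.91 (SE 0.37, adjusted p = 0.320) and 1.36 (SE 0.37, adjusted p = 0.266). Mdm2, the ubiquitin ligase that degrades p53, had 10.5, 11.9 and 8.92 FPKM in WT. It had 11.6, 20.8 and 8.42 FPKM under the H3R17H label, which overlapped WT, and 13.8, 30.9 and 13.5 FPKM under the Carm1-/- label, which did not. Mdm2 differed from WT by 0.28 (SE 0.40, adjusted p = 0.781) and 0.74 (SE 0.40, adjusted p = 0.487).

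The targets that open the mitochondrial membrane are Bax, Pmaip1 and Bbc3. Bax, a pore-forming BCL2 protein, had 95.8, 105 and 69.1 FPKM in WT, 105, 107 and 92.1 FPKM under the H3R17H label and 106, 113 and 121 FPKM under the Carm1-/- label. The second edited group lay just above WT without overlap, and the first overlapped it. The differences of Bax were 0.19 (SE 0.21) and 0.35 (SE 0.21, adjusted p = 0.528). Pmaip1, which encodes the BH3-only protein NOXA, had 8.64, 10.7 and 9.33 FPKM in WT, 8.36, 31 and 10.3 FPKM under the H3R17H label and 13.2, 24.1 and 23.3 FPKM under the Carm1-/- label. In the former only replicate 2 exceeded WT, and in the latter all 3 did, with a log2 difference of 0.96 (SE 0.44, adjusted p = 0.439). Bbc3, which encodes the BH3-only protein PUMA, was listed at 0.13, 0.19 and 0.12 FPKM in WT, 0.21, 1.47 and 0.63 FPKM under the H3R17H label and 0.64, 1.56 and 0.77 FPKM under the Carm1-/- label. These levels are low, where the log2(FPKM + 1) scale understates a ratio, and all 6 edited libraries were above all WT libraries. In a limma fit without the filter Bbc3 differed from WT by 0.56 (SE 0.33, adjusted p = 0.549) and 0.77 (SE 0.33, adjusted p = 0.474).

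Perp, a tetraspan membrane protein of desmosomes that is also an apoptosis effector, was the p53 target that went the other way in 1 group. It had 114, 145 and 133 FPKM in WT, 135, 166 and 144 FPKM under the H3R17H label and 136, 105 and 79.3 FPKM under the Carm1-/- label. The differences of 0.18 and -0.32 (SE 0.23 each) came with overlapping libraries. Its 2 lowest libraries, replicates 2 and 3 labelled Carm1-/-, also had low trophectoderm markers (2015 and 2568 FPKM summed, mostly Krt8 and Krt18). Replicates 1 and 2 labelled H3R17H had lower ones (1624 and 1637 FPKM) with Perp at 135 and 166 FPKM. Any part of trophectoderm content in the Perp values was not tested. Aen, a nuclease induced by p53, had 52, 45.9 and 38.4 FPKM in WT, 43.3, 65.6 and 48.9 FPKM under the H3R17H label and 51.6, 86.7 and 70.7 FPKM under the Carm1-/- label. Only the last group had an unadjusted p under 0.05, with a difference of 0.59 (SE 0.26, adjusted p = 0.431), and its lowest library overlapped WT.

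Among the death receptors, Tnfrsf10b, the mouse TRAIL receptor, had 19, 11.6 and 12.8 FPKM in WT, 19.8, 36.1 and 21.8 FPKM under the H3R17H label and 25.6, 25 and 21.4 FPKM under the Carm1-/- label. No edited library overlapped WT, though the gap to WT replicate 1 was small. The differences were 0.78 (SE 0.30, adjusted p = 0.302) and 0.72 (SE 0.30, adjusted p = 0.405). Fas, the receptor of FAS ligand, was listed at 0, 1.32 and 0 FPKM in WT, 0.13, 7.95 and 0 FPKM under the H3R17H label and 0, 8.2 and 0 FPKM under the Carm1-/- label. In each group replicate 2 held nearly all of the Fas signal. Eda2r, the X-linked receptor of ectodysplasin A2, had 2.2, 1.5 and 1.79 FPKM in WT, 1.43, 6.66 and 3.53 FPKM under the H3R17H label and 4.57, 19.5 and 1.84 FPKM under the Carm1-/- label. Both edited groups overlapped WT, and the highest value, in replicate 2 labelled Carm1-/-, came from a library without Y-linked transcripts. Replicate 3 of that group, also without them, had 1.84 FPKM, below replicate 1 with them (4.57 FPKM). Under the H3R17H label the libraries without them had 6.66 and 3.53 FPKM, and replicate 1 with them 1.43 FPKM. Any part of sex in the Eda2r values was not tested.

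The remaining targets act in stress and growth signalling or on RNA. Sesn2, a stress sensor that restrains mTORC1, had 10.2, 14 and 7.24 FPKM in WT, 9.81, 23.7 and 15.7 FPKM under the H3R17H label and 22.6, 27.6 and 20.3 FPKM under the Carm1-/- label. The last group lay clear of WT, with a difference of 1.13 (SE 0.35, adjusted p = 0.300), and the first overlapped it (0.56, adjusted p = 0.489). Phlda3, which inhibits AKT, had 26.8, 32.5 and 22.7 FPKM in WT, 13.3, 56.6 and 37.1 FPKM under the H3R17H label and 39.3, 129.7 and 55.2 FPKM under the Carm1-/- label. Its values lay on both sides of WT under the H3R17H label (0.17, SE 0.53) and all above it under the Carm1-/- label (1.25, SE 0.53, adjusted p = 0.410). Zmat3, an RNA-binding protein that regulates splicing, had 3.94, 3.51 and 1.43 FPKM in WT, 5.42, 5.32 and 4.97 FPKM under the H3R17H label and 5.44, 3.17 and 2.73 FPKM under the Carm1-/- label. It was the target whose libraries labelled H3R17H were closest together, and all 3 were above WT (0.72, SE 0.37, adjusted p = 0.399). Gdf15, a secreted stress hormone, was listed at 0, 0.91 and 0.02 FPKM in WT, 0.26, 0.23 and 1.99 FPKM under the H3R17H label and 2.88, 6.45 and 0.22 FPKM under the Carm1-/- label, with overlap in both.

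**Figure D2:**
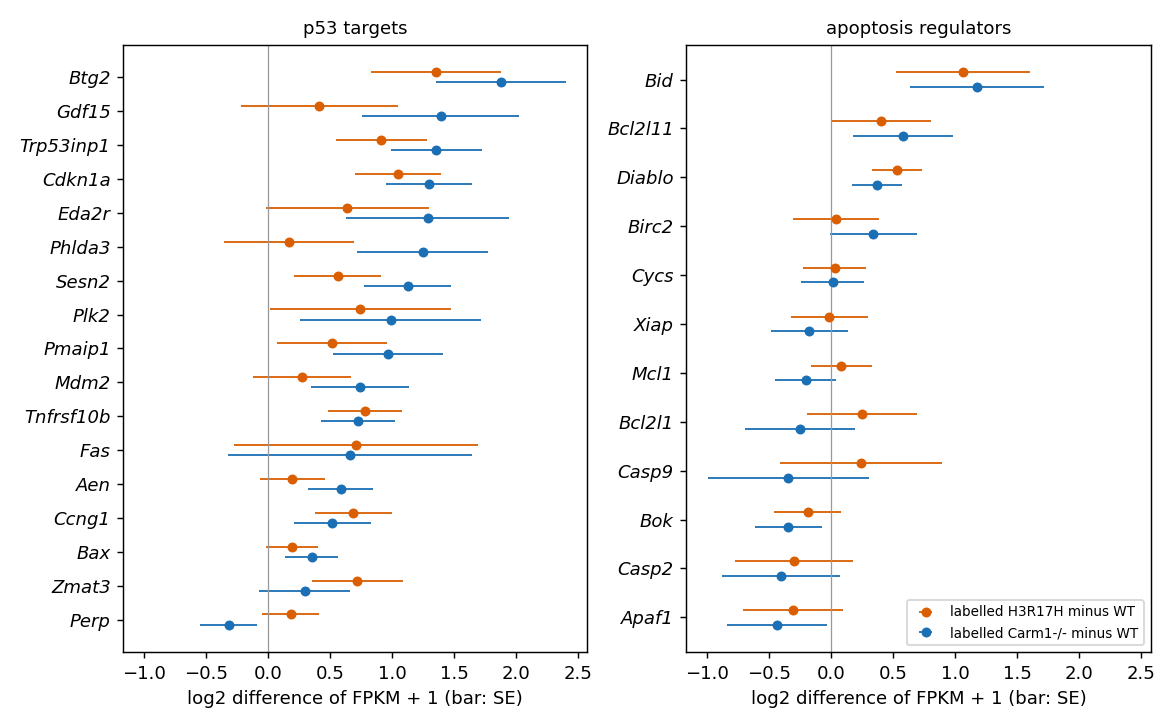
Difference of each member from WT on the log2(FPKM + 1) scale, with 1 point per edited group and a horizontal bar of 1 SE from limma; p53 targets are on the left and apoptosis regulators on the right. The p53 targets lie right of 0 apart from Perp under the Carm1-/- label (-0.32), and the apoptosis regulators lie on both sides of 0 with Bid and Diablo furthest above their errors.

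The height of the p53 targets differed strongly between libraries of the same label. Relative to the WT mean, their median was 0.02, 0.24 and -0.24 on the log2 scale in WT replicates 1 to 3, 0.05, 1.15 and 0.44 under the H3R17H label, and 0.52, 1.49 and 0.45 under the Carm1-/- label. Replicate 2 of each edited group was the high library, and H3R17H-label replicate 1 lay within the WT range. In these 2 high libraries 16 and 15 of the 17 targets exceeded all WT libraries, where 31.2% and 34.4% of all genes did. Replicate 1 labelled H3R17H had 7 of 17 targets above and 3 below all WT libraries, near the shares of all genes (33.6% and 33%). Replicate 3 labelled H3R17H had 9 above, and replicates 1 and 3 labelled Carm1-/- had 12 and 11, beside 30.4%, 29.4% and 33.3% of all genes. The 2 highest of the 9 libraries were replicate 2 of each edited group for 10 of 17 targets (58.8%) and for 689 of 11848 genes (5.82%).

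Sex-linked transcripts and lineage markers moved with this pattern in part. The replicate 2 libraries lacked Y-linked transcripts and had the highest Xist (28.2 and 32.5 FPKM, against 0.43 or less in WT). They had trophectoderm medians of -1.66 and -1.64 and primitive endoderm medians of -1.25 and -1.46 on the log2 scale relative to WT. Of the 6 tested primitive endoderm genes, 5 were lower than WT under the H3R17H label and 4 under the Carm1-/- label. Gata6 was higher under both labels, with 52.4 and 40.1 FPKM in these replicate 2 libraries against 21.7 to 29.1 FPKM in WT. Gata4 was also higher under the Carm1-/- label. The replicate 3 libraries labelled H3R17H and Carm1-/- also lacked Y-linked transcripts, with Xist at 16.6 and 18.9 FPKM. Their trophectoderm medians were -0.33 and -1.24, with primitive endoderm at -1.29 and -1.09 and p53 targets at 0.44 and 0.45. H3R17H-label replicate 1, with Y-linked transcripts and Xist at 4.84 FPKM, had trophectoderm at -1.12, primitive endoderm at -0.84 and p53 targets at 0.05. Replicate 1 labelled Carm1-/- had trophectoderm at 0.02, primitive endoderm at -0.06 and p53 targets at 0.52. With a term for sex, 12 of 17 targets were higher than WT under the H3R17H label (median 0.24) and 15 under the Carm1-/- label (median 0.5). Among libraries with Y-linked transcripts, which leaves 1 library in each edited group, assumed to vary like the others, the counts were 10 of 17 (median 0.05) and 16 of 17 (median 0.52). With replicate 2 of both edited groups left out, a choice made after seeing the data, they were 13 of 17 (0.24) and 15 of 17 (0.5). The part of trophectoderm and primitive endoderm content in these values was not tested.

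**Figure D3:**
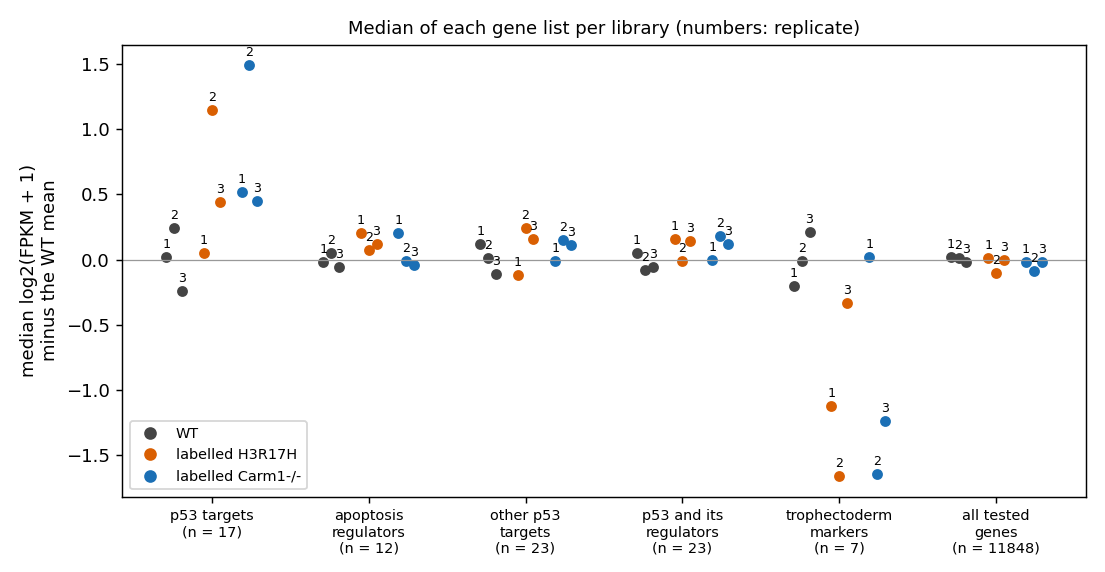
Median of each gene list in each library, on the log2(FPKM + 1) scale after subtraction of the WT mean; a point is 1 library, the number beside it is the replicate and the colour is the group. The p53 targets spread from -0.24 to 1.49 with replicate 2 of each edited group on top, while the apoptosis regulators stay between -0.06 and 0.20.

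Set together, the 6 edited libraries lay above all 3 WT libraries for 4 of 17 p53 targets, where 2.6% of all genes did, and below for none (4.34%). The 4 were Cdkn1a, Btg2, Trp53inp1 and Tnfrsf10b. Cdkn1a stood at 296 ± 120 FPKM in edited libraries (SD, n = 6) against 122 ± 8.5 in WT (n = 3), a difference of 1.17 (SE 0.30, limma adjusted p = 0.205, exact two-sided permutation p = 0.0238). Btg2 differed by 1.62 (SE 0.45, adjusted p = 0.205, exact permutation p = 0.0357), Trp53inp1 by 1.14 (SE 0.32, adjusted p = 0.205, exact permutation p = 0.0238) and Tnfrsf10b by 0.75 (SE 0.26, adjusted p = 0.270, exact permutation p = 0.0119). The smallest p that 6 against 3 libraries allow is 0.0119, and these exact values are not corrected for the number of genes. The 4 targets were named because their libraries did not overlap, so small exact values followed from that choice and add no support. Over the 17 targets, 16 were higher (46.4% of all genes), with a median of 0.74 beside -0.04 for all genes, and 6 had an unadjusted p under 0.05 (6.64% of all genes higher and 7.68% lower). No target and 0% of all genes passed after adjustment. Cdkn1a and Trp53inp1 did pass in this comparison in 2 alternatives in which many genes did. With array quality weights, where 465 of 11850 genes passed (3.92%), they differed by 1.09 (adjusted p = 0.0328) and 1.18 (adjusted p = 0.0345). Without replicate 1 labelled Carm1-/-, where 623 genes passed (5.26%), they differed by 1.34 (adjusted p = 0.0229) and 1.31 (adjusted p = 0.0291). Over the alternatives their adjusted p ranged from 0.0229 to 0.880 and from 0.0291 to 0.885. Without that library they also passed under the Carm1-/- label alone, where 549 genes did (4.63%), by 1.62 (adjusted p = 0.0256, range 0.0256 to 0.940) and 1.70 (adjusted p = 0.0273, range 0.0273 to 0.940).

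Between the 2 edited groups no p53 target separated. The targets were higher under the Carm1-/- label for 12 of 17 (49% of all genes), with a median of 0.39 beside -0.01. None had non-overlapping libraries (5.13% of all genes higher and 6.07% lower), an unadjusted p under 0.05 (4.09% and 4.12%) or an adjusted p under 0.05 (0% of all genes). The median was 0.09 without replicate 2 labelled Carm1-/- and 0.18, 0.76 and 0.19 without replicates 1, 2 and 3 labelled H3R17H. Phlda3 had the largest difference, 1.08 (SE 0.53, adjusted p = 0.652), and Perp the lowest adjusted p, 0.618, at -0.50 (SE 0.23). A p above the threshold does not show that the 2 labels act alike.

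The counts and medians of the apoptosis regulators lay closer to those of all genes; the difference from the p53 targets was not tested. Under the H3R17H label 8 of 12 were higher than WT, with a median of 0.06, and under the Carm1-/- label 5 of 12, with a median of -0.19. The shares of all genes are those given above, 47.7% and 46.3%. In the former 1 regulator lay above WT without overlap and none below (13.3% and 15.6% of all genes), and in the latter 2 above and 1 below (6.91% and 9.71%). None passed adjustment, and the lowest adjusted p was 0.299 and 0.440. At an unadjusted p under 0.05 there was 1 regulator, higher, under the H3R17H label (6.41% of all genes higher and 7.75% lower) and 0 under the Carm1-/- label (5.25% and 6.19%). For the 6 edited libraries the count was 5 of 12 higher with a median of -0.03, and between the edited groups 3 of 12 with a median of -0.14. The medians against WT did not keep their sign: without H3R17H-label replicate 1 the first was -0.01, and without replicate 3 labelled Carm1-/- the second was 0.

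**Figure D4:**
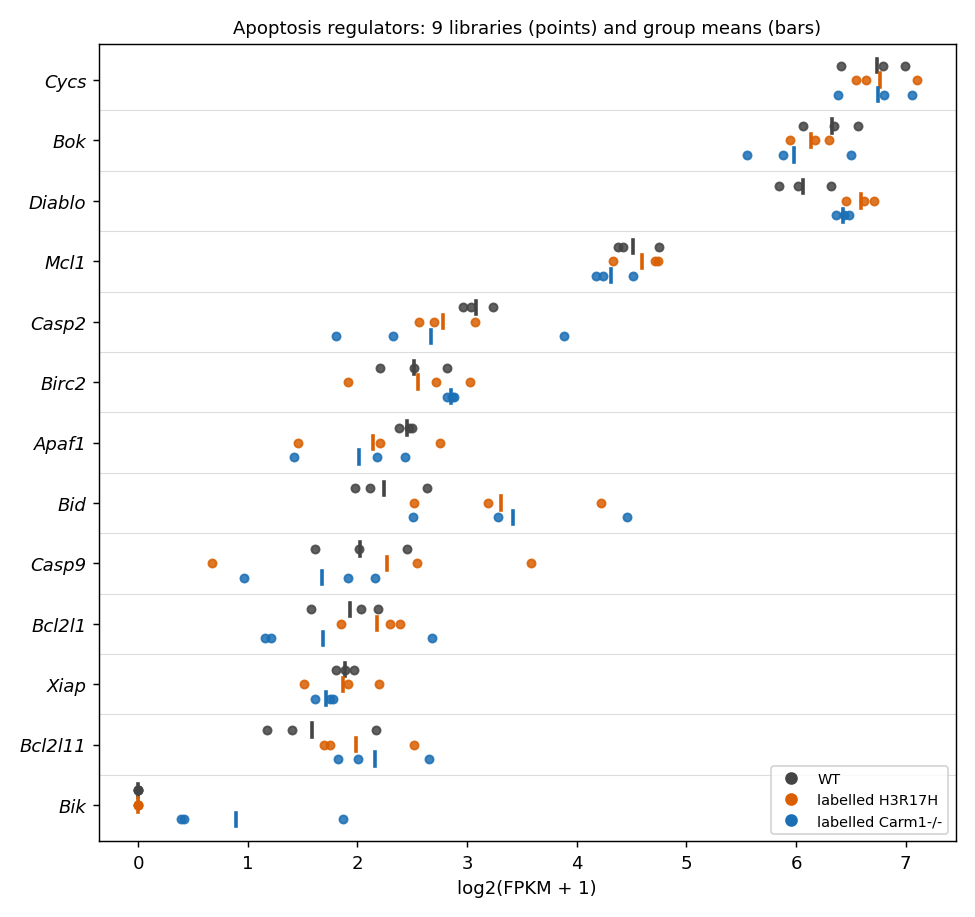
Level of each apoptosis regulator in the 9 libraries, as log2(FPKM + 1) on the horizontal axis, with 1 point per library, a bar at each group mean and colours for the groups. Diablo has all 6 edited libraries to the right of all WT libraries, Bid has 4 of 6, and Cycs, Mcl1 and Birc2 group means lie close together.

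Diablo, which encodes the mitochondrial protein SMAC that antagonises IAPs, was the regulator that separated in both groups. It had 63.8, 79 and 56.4 FPKM in WT, 86.7, 104 and 97 FPKM under the H3R17H label and 88.2, 81.3 and 85.5 FPKM under the Carm1-/- label. The edited libraries lay above WT in 6 of 6 cases, with the smallest gap at replicate 2 labelled Carm1-/-. The differences were 0.53 (SE 0.20, adjusted p = 0.299) and 0.37 (SE 0.20, adjusted p = 0.497), and 0.45 over both groups (SE 0.17, adjusted p = 0.302, exact permutation p = 0.0119). Diablo was singled out by its lack of overlap, so a small exact value followed from that choice and adds no support. For Diablo, replicate 2 was the highest library under the H3R17H label and the lowest under the Carm1-/- label. Of the IAPs themselves, Birc2 (cIAP1) had 4.73, 3.63 and 6.05 FPKM in WT, 5.59, 7.13 and 2.77 FPKM under the H3R17H label and 6.06, 6.38 and 6.27 FPKM under the Carm1-/- label. Its separation in the last group was by 0.01 FPKM from WT replicate 3 (0.34, SE 0.35, adjusted p = 0.727). Xiap, the X-linked caspase inhibitor, had 2.71, 2.91 and 2.5 FPKM in WT, 1.85, 2.76 and 3.58 FPKM under the H3R17H label and 2.42, 2.06 and 2.37 FPKM under the Carm1-/- label. The last group lay just below WT (-0.18, SE 0.31, adjusted p = 0.851), within its error.

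Bid, the BH3-only protein that links death receptors to mitochondria when cleaved by caspase-8, had the largest differences of the apoptosis regulators. It had 2.95, 3.33 and 5.21 FPKM in WT, 8.12, 17.6 and 4.72 FPKM under the H3R17H label and 4.7, 21 and 8.75 FPKM under the Carm1-/- label. Replicate 2 of each edited group was highest, as for most p53 targets, and 1 library of each group overlapped WT. The differences were 1.06 (SE 0.54, adjusted p = 0.398) and 1.18 (SE 0.54, adjusted p = 0.440). Bcl2l11, which encodes the BH3-only protein BIM, had 1.26 to 3.5 FPKM in WT, 2.24 to 4.71 under the H3R17H label and 2.55 to 5.3 under the Carm1-/- label, all overlapping. Bik, another BH3-only gene, was listed at 0 in all 3 WT libraries and all 3 labelled H3R17H, and at 0.34, 2.66 and 0.31 FPKM under the Carm1-/- label. These are levels at which an FPKM table cannot tell absence from missed reads.

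Mcl1 and Bcl2l1 (BCL-XL) encode survival proteins. Mcl1 had 19.7, 20.4 and 25.9 FPKM in WT, 25.2, 25.8 and 19.1 FPKM under the H3R17H label and 17.1, 21.9 and 17.8 FPKM under the Carm1-/- label. Bcl2l1 lay between 1.98 and 3.57 FPKM in WT and between 1.23 and 5.41 FPKM in the 6 edited libraries. Both genes overlapped WT in both groups, with differences of 0.08 and -0.21 for Mcl1 and 0.25 and -0.25 for Bcl2l1, higher than WT under the H3R17H label and lower under the Carm1-/- label. The pore former Bok, which can act without BAX and BAK, was the most abundant BCL2 family transcript among the apoptosis regulators in WT. It had 66, 93.9 and 80.5 FPKM there, with a mean of 80.2 FPKM against 89.8 FPKM for Bax of the p53 targets. Bok had 71.1, 60.5 and 77.9 FPKM under the H3R17H label and 58.1, 46 and 89.5 FPKM under the Carm1-/- label, and its differences were -0.19 and -0.35 (SE 0.27 each).

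Genes of the apoptosome and its caspases had overlapping libraries in both groups. Cycs, which encodes cytochrome c and has processed pseudogenes that may share its reads, had 107 ± 21.4 FPKM in WT, 109 ± 23.5 under the H3R17H label and 108 ± 24.9 under the Carm1-/- label (SD, n = 3 each). Apaf1, the apoptosome scaffold, had 4.53, 4.66 and 4.22 FPKM in WT, 3.63, 5.76 and 1.75 FPKM under the H3R17H label and 3.53, 4.41 and 1.68 FPKM under the Carm1-/- label. Its lowest libraries were replicate 3 of each edited group, and its differences were -0.31 and -0.44 (SE 0.41 each). Casp9, the initiator caspase of the apoptosome, ranged from 2.07 to 4.46 FPKM in WT and from 0.6 to 11 FPKM in edited libraries, with the lowest and the highest value both among the libraries labelled H3R17H. Its differences were 0.24 and -0.35 (SE 0.65 each). Casp2, a caspase activated by the PIDDosome, had 6.81, 8.43 and 7.18 FPKM in WT, 7.42, 5.5 and 4.89 FPKM under the H3R17H label and 13.7, 2.5 and 4.02 FPKM under the Carm1-/- label. Its differences of -0.30 and -0.41 (SE 0.47 each) hid a high library, replicate 1 labelled Carm1-/-.

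Further genes of the pathway are given by list. Of 23 tested genes among p53 and its regulators, 14 were higher than WT under the H3R17H label and 14 under the Carm1-/- label (47.7% and 46.3% of all genes), with medians of 0.11 and 0.08. Trp53 itself, which has a processed pseudogene in the mouse, had 61.1, 55.5 and 27.1 FPKM in WT, 65.9, 91.2 and 84.2 FPKM under the H3R17H label and 64.2, 68.8 and 49.4 FPKM under the Carm1-/- label. The difference was 0.81 (SE 0.31, adjusted p = 0.306) in the first and 0.41 (SE 0.31) in the second, which overlapped WT. Chek2, a checkpoint kinase that phosphorylates p53, had 11.3, 8.57 and 10.1 FPKM in WT, 19.5, 31.3 and 19.1 FPKM under the H3R17H label and 14.1, 21.9 and 16.4 FPKM under the Carm1-/- label. All 6 edited libraries exceeded WT, by 1.11 (SE 0.29, adjusted p = 0.224) and 0.73 (SE 0.29, adjusted p = 0.392).

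Of 23 other tested p53 targets, 13 and 12 were higher than WT under the H3R17H and the Carm1-/- label (47.7% and 46.3% of all genes). Their medians were 0.04 and 0.15, and the difference from the 17 members was not tested. Pidd1, the PIDDosome scaffold, had 3.1, 2.21 and 1.57 FPKM in WT, 7.1, 5.79 and 5.3 FPKM under the H3R17H label and 6.33, 8.61 and 3.75 FPKM under the Carm1-/- label. It was above WT in 6 of 6 edited libraries, by 1.12 (SE 0.35, adjusted p = 0.247) and 1.10 (SE 0.35, adjusted p = 0.300). Ddit4, an mTORC1 inhibitor also induced by other stresses, had 5.34, 1.04 and 0.73 FPKM in WT, 12.2, 30.3 and 11.5 FPKM under the H3R17H label and 3.92, 35.3 and 15 FPKM under the Carm1-/- label. Its differences were 2.62 (SE 0.73, adjusted p = 0.226) and 2.33 (SE 0.73, adjusted p = 0.300), and replicate 2 was again highest in both groups. Ddb2, a DNA damage sensor, was lower than WT under the Carm1-/- label (7.05, 5.83 and 3.48 against 11.4, 14.5 and 9.73 FPKM, a difference of -1.02, SE 0.35, adjusted p = 0.336).

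Of 23 other tested apoptosis genes, 6 were higher than WT under the H3R17H label and 9 under the Carm1-/- label (47.7% and 46.3% of all genes). In the same order 17 and 14 were lower, and the medians were -0.21 and -0.11. Aifm1, a mitochondrial flavoprotein of respiratory chain assembly and caspase-independent death, had 36, 33.3 and 33.8 FPKM in WT, 13.1, 20.7 and 24 FPKM under the H3R17H label and 30.8, 31.1 and 41.4 FPKM under the Carm1-/- label. It lay below WT without overlap under the H3R17H label (-0.84, SE 0.27, adjusted p = 0.247), and the 2 edited groups did not overlap each other (0.84, SE 0.27, adjusted p = 0.469). Birc3 (cIAP2) had 2.71, 4.14 and 3.8 FPKM in WT, 1.34, 2.61 and 3.92 FPKM under the H3R17H label and 1.78, 0 and 0.2 FPKM under the Carm1-/- label. The last group lay below WT (-1.59, SE 0.45, adjusted p = 0.266). None of the genes in these 3 further lists passed adjustment in any of the 4 comparisons with all 9 libraries. In at least 1 alternative, 5 of them did, named here after their values were seen. The number of all genes passing depended on the alternative. It reached 240 of 11850 under the H3R17H label, 549 (4.63%) under the Carm1-/- label and 623 (5.26%) for both groups. The adjusted p reached 0.0476 for Chek2 under the H3R17H label (range to 0.688). Under the Carm1-/- label it reached 0.0259 for Birc3 (to 0.939), 0.0307 for Ddit4 (to 0.971), 0.0339 for Trp53bp2 (to 0.999) and 0.0423 for Sfn (to 0.991). For both groups it reached 0.0188 for Ddit4 (to 0.880), 0.0361 for Sfn (to 0.938) and 0.0394 for Chek2 (to 0.880).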

How the data were processed

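RNA was sequenced from 9 libraries, 3 per group, and the authors deposited 1 table of FPKM values, per the file headers. Per the submitters' processing notes, the builds were mm10 and GRCm38 and Bowtie 0.12.2 was a tool; the sources used here name no quantifier or annotation. Low values showed no whole-read steps, so depth is unknown and no counting interval is given. Because FPKM is relative to the library total, a few abundant genes can shift the others. Libraries were grouped by sample title. Values were tested as log2(FPKM + 1), which understates differences of low genes, for genes reaching 1 FPKM in 3 or more libraries. limma 3.58.1 (R 4.3.3) fitted all 9 libraries with an intensity trend, and the 4 comparisons were contrasts with Benjamini-Hochberg adjustment over 11850 genes and a threshold of 0.05. The fit was also run on simulated data with an equal spread for all genes and no differences of sex or library. That run does not measure how the fit performs on these libraries. Single genes also had two-sided exact permutation tests. Half-sites, summaries and plots were made with pandas 2.3.3, matplotlib 3.10.9 and numpy 2.4.6 under Python 3.11.15. Positions are from GENCODE on GRCm38. Alternatives changed the pseudocount, filter, scaling, trend, weights, libraries, sex term and replicate block. The members and the further gene lists were chosen with earlier results of these data known. Members are given in full where groups do not overlap or the unadjusted p is under 0.05; of each further list, only some of the up to 4 genes with the smallest p per comparison are named.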

Additional observations from a re-analysis of the deposited data

How the results depend on the processing

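The median difference of the p53 targets kept its sign in all settings run. It was 0.24 to 0.85 on leaving out 1 library at a time in the libraries labelled H3R17H vs WT, 0.5 to 1.2 in those labelled Carm1-/- vs WT, 0.09 to 0.76 between the edited groups and 0.52 to 0.92 for both edited groups vs WT. For H3R17H it was 0.05 among libraries with Y-linked transcripts. For Carm1-/- it was 0.5 with a sex term and 0.5 with replicate 2 of both edited groups left out. Targets past the threshold numbered 0 to 2 without 1 library for Carm1-/- and for both groups (2 without Carm1-/- replicate 1, where 549 and 623 of 11850 genes passed), and 2 with array quality weights for both groups (465 genes), against 0 otherwise. The apoptosis median ranged from -0.01 to 0.14 without 1 library for H3R17H, with 0.15 under a sex term and 0.2 among Y-linked libraries. For Carm1-/- it ranged from -0.19 to 0, with -0.08 at a pseudocount of 5, 0.01 at a mean of at least 5 FPKM, 0.33 with a sex term, 0.2 among Y-linked libraries and -0.07 without both replicate 2 libraries. Between the edited groups it ranged from -0.19 to -0.03, with 0 among Y-linked libraries. For both groups vs WT it ranged from -0.07 to 0.07, with 0.02 at a pseudocount of 5, at a mean of at least 5 FPKM and without both replicate 2 libraries, 0 with median-of-ratios scaling, and 0.27 with a sex term and among Y-linked libraries. The cause of these changes was not tested. With the replicate block the p53 medians were 0.64, 0.96, 0.39 and 0.74, the apoptosis medians 0.06, -0.19, -0.14 and -0.03, and no member passed. In deviations from group means, same-numbered libraries correlated at -0.05 to 0.183 and differently numbered ones at -0.247 to 0.274. These values show no pairing by number, but with 3 libraries per group they cannot exclude it. With unknown depth, low members such as Bbc3, Bik, Fas and Gdf15 have no known counting error.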
